A study of Homo sapiens with 24 samples.

Results

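HERVK internal regions and LTR5 long terminal repeats were followed through the repeat-locus table of 3 liver cancer cell lines treated with decitabine, GSK-126 or both. Members were chosen by name alone: every locus whose repeat name was a HERVK internal region, or LTR5, LTR5A, LTR5B or LTR5_Hs. There were 3979 such loci in 14 subfamilies, of 5298130 repeat loci in the table, and 1390 of them overlapped a gene body. Of the members, 1939 had a value above 0 in at least 1 library. Only 237 loci (133 inside and 104 outside gene bodies) and 12 subfamilies had enough signal to be tested. HERVK11D-int and HERVKC4-int did not reach 1 RPM (reads in a library of 1e6 reads) in 2 libraries and were left out of the tests.

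HepG2, SNU398 and SNU475 are labelled as wild-type hepatocellular carcinoma lines and came from the ATCC collection. Each line received DPBS (buffered saline, the vehicle), decitabine (5-Aza-CdR) at 100 nM, GSK-126 at 500 nM, or decitabine with GSK-126, called the combination here, daily for 3 days. HepG2 and SNU398 were harvested on day 14 and SNU475 on day 21, so the time after treatment differs between SNU475 and the other lines. Each of the 12 groups had 2 libraries, A and B, and values given in pairs are in that order. The labels do not say whether A and B were separate cultures, so p-values measure only the spread between these libraries, which may be technical.

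Endogenous retroviruses are remains of retroviral infections of the germ line. A provirus carries internal gag, pol and env regions between a pair of long terminal repeats (LTRs), which hold promoter and enhancer sequence, and many copies have been reduced to a single LTR. The HERVK names cover several betaretrovirus-like groups called HML. LTR5_Hs, LTR5A and LTR5B are the LTRs of HML-2, which holds the youngest human proviruses, and LTR5_Hs is known for its activity in the early embryo and in teratocarcinoma cells. Such elements are kept silent by DNA methylation and by TRIM28 with the histone methyltransferase SETDB1. Decitabine inhibits DNA methyltransferases, and GSK-126 inhibits EZH2, which methylates lysine 27 of histone H3. The series title names gene activation by DNMT and EZH2 inhibitors acting together, and the combination, its comparison with each drug and the interaction of the drugs address that question.

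The loci themselves are on hg19, and no genome of that build was used, so their sequences are not shown. Promoters are shown instead for 4 noncoding or HERVK-named genes whose bodies hold loci described below, because the content of CG, the dinucleotide at which DNA is methylated, can be read in them. They run over 300 bases from RefSeq (GRCh38.p14), mostly 250 before and 50 from the gene start on, 5′ to 3′ on the gene's strand, with each CG in capitals. Of the 20 genes that hold named loci, 8 had a promoter in the RefSeq table.
ERVK13-1: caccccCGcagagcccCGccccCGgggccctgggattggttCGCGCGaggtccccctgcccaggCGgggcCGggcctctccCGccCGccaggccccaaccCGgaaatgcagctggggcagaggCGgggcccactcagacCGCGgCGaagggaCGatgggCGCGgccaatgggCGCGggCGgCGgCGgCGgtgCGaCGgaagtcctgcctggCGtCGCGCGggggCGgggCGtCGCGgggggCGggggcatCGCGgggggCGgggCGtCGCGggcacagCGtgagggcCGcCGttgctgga
ERVK3-1: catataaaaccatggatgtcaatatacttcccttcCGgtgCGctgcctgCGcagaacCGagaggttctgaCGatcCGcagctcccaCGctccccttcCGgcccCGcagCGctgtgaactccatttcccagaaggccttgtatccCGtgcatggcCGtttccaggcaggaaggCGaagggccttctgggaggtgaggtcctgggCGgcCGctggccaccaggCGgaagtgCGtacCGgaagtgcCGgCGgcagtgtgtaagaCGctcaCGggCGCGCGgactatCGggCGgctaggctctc
LINC00662: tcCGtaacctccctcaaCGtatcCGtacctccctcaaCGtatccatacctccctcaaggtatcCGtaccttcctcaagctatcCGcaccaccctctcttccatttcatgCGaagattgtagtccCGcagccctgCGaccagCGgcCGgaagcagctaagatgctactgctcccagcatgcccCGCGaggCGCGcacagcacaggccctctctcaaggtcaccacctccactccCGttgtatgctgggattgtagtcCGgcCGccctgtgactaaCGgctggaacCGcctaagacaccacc
LINC00839: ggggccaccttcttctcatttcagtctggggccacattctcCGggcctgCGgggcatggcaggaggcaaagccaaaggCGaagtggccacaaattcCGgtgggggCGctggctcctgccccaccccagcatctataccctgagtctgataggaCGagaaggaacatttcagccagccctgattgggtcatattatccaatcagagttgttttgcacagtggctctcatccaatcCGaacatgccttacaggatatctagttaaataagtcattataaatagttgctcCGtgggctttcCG
The ERVK13-1 promoter (chr16:2673390-2673689, minus strand) held 44 CG, and only 4.19% of the 35116 promoters of this length held at least as many. The ERVK3-1 promoter (chr19:58305127-58305426, plus strand) held 27, a number reached by 28.2% of promoters. The LINC00662 promoter (chr19:27793891-27794190, minus strand) held 20 and the LINC00839 promoter (chr10:42475241-42475540, plus strand) held 9, against a median of 14. CG reads the same on both strands, and 96.0% of promoters held at least 1. No methylation was measured here.

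Depth ranged from 32.60 to 60.37, in units of 1e6 reads per library, and was lowest in the HepG2 combination libraries (32.60 to 34.41). Gene-table levels of 8 hepatocyte markers checked the labelled cell type. Their summed scaled RPKM was 6394 to 9808 in HepG2, but 0.541 to 10.3 in 7 SNU398 libraries and 1.42 to 15.7 in 7 SNU475 libraries, so the defining hepatocyte genes were close to absent in the last 2 lines. A single library stood apart in each of them: SNU398 decitabine A had a sum of 39.4 against 0.753 in its partner, and SNU475 DPBS A had 62.9 against 15.7. ALB, the serum albumin gene, was at 22.1 and 0.369 in the SNU398 decitabine pair and at 24.1 and 1.09 in the SNU475 DPBS pair. Other pairs of marker sums were unequal at lower levels, such as 4.76 and 0.541 in SNU398 DPBS, 1.49 and 10.3 in the SNU398 combination and 11.1 and 2.44 in the SNU475 combination. Leaving out SNU398 decitabine A or SNU475 DPBS A thus does not remove all hepatocyte transcripts. The part of these transcripts in the results was not tested. Calls given below that were lost without either of these 2 libraries are named as such. Leukocyte markers summed to 173 to 451 in HepG2, nearly all LYZ, and to at most 13.4 in the other lines. Endothelial markers summed to at most 0.684 and fibroblast markers to at most 18.5. In bulk RNA, fewer cells of a type and less RNA per cell cannot be told apart.

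In the DPBS libraries HepG2 carried the most HERVK and LTR5 RNA, a rank that rests on 1 element. The member loci summed to 355 and 359 RPM in the HepG2 DPBS libraries, 147 and 150 RPM in SNU398 and 127 and 125 RPM in SNU475. Without the element described below the sums were 108 and 110 RPM in HepG2, 104 and 107 in SNU398 and 125 in both SNU475 libraries, so that SNU475 was highest. Across the 24 libraries, 76.8% to 84.3% of this RNA came from loci that overlap a gene body by any base, called inside here. Reads there can come from the host transcript as well as from the repeat. HERVK-int, the internal region of the HML-2 group, differed most between lines, with a DPBS mean of 239 RPM in HepG2, 44.8 in SNU398 and 10.3 in SNU475. Its difference from HepG2 was -2.40 on the log2 scale in SNU398 and -4.47 in SNU475. LTR5_Hs had the same order, at 24.3, 16 and 11.9 RPM, but without the element it was lowest in HepG2 (8.61 RPM, against 13.7 and 11.9).

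**Figure D1:**
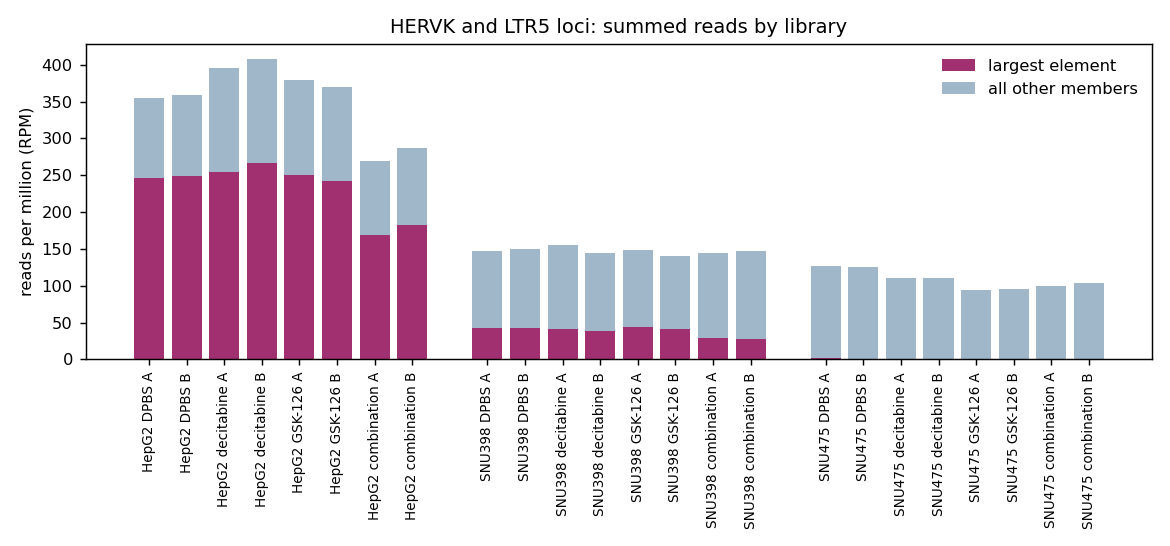
Summed RPM of all HERVK and LTR5 loci in each of the 24 libraries, as stacked bars that split the element with the highest level (chromosome 8, next to FGL1) from all other members. HepG2 bars reach 408 RPM and are mostly that element, while SNU475 bars hold almost none of it.

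Other subfamilies ran in a different order. HERVK3-int was lowest in HepG2 (14.4 RPM) and highest in SNU475 (27.1), and the SNU475 level was above that of HepG2 by 0.90 on the log2 scale. HERVK9-int was highest in SNU398 (31.8 RPM, against 22.9 and 22.2), while HERVK13-int was highest in SNU475 (10.9, against 7.22 in HepG2 and 4.64 in SNU398). LTR5B stood at 11.8 RPM in HepG2 and 11 in SNU475, above 5.18 in SNU398. Of the 12 subfamilies, 3 were called higher and 9 lower in SNU398 than in HepG2, at 79.1% called over all 843 subfamilies tested. SNU475 had 2 higher and 6 lower than HepG2 (80.1% called; 2 and 5 without SNU475 DPBS A, where LTR5 and LTR5A were lost), and 6 higher and 4 lower than SNU398 (67.9% called). A call is a Benjamini-Hochberg adjusted p under 0.05 in a limma fit over all features of the table. Against HepG2, calls over all subfamilies ran mostly the other way, with 499 higher and 168 lower in SNU398 and 540 and 135 in SNU475. SNU475 against SNU398 had 340 higher and 232 lower. Scaling by gene-based factors moved the median over all subfamilies by -0.32 (SNU398 minus HepG2), -0.17 (SNU475 minus HepG2) and 0.13 (SNU475 minus SNU398). Of the 12 subfamilies it left 1 higher and 9 lower in the first of these comparisons and 2 and 9 in the second. Over all subfamilies it gave 271 higher and 299 lower in the first and 424 and 190 in the second. The direction over all subfamilies in SNU398 minus HepG2 thus depended on the scaling.

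Per length of annotated sequence, HERVK-int in HepG2 stood at 0.490 RPM per kb, against 0.0919 in SNU398 and 0.0212 in SNU475. HERVK13-int had 0.0880, 0.0566 and 0.132 RPM per kb in these lines, and HERVK3-int 0.0382, 0.0573 and 0.0723. HERVK9-int, although it has the most loci (669), stood at only 0.0230, 0.0319 and 0.0223 RPM per kb. LTR5, a name held by 20 loci with a median length of 82 bases, had 0.798 RPM per kb in HepG2. That value came almost wholly from a single 55-base locus inside CREB3L2 (chr7:137564943-137564997), which held 87.5% of the subfamily there and 84.3% in SNU475. It was singled out after its values were seen.

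One element decided the HERVK total of HepG2. Joining member loci within 1000 bases gave 2112 elements, and the one with the highest level covered chr8:17765202-17773940, with 5 HERVK-int and LTR5_Hs loci that reach into FGL1, the gene of the liver-secreted protein fibrinogen-like 1. It held 62.6% to 69.6% of all member RPM and 95.8% to 97.6% of HERVK-int in HepG2 libraries. In SNU398 it held 19.1% to 29.9% of member RPM, and in SNU475 0.0182% to 1.36%. Its level in HepG2 was 247 and 249 RPM with DPBS, 254 and 267 with decitabine, 250 and 242 with GSK-126, and 169 and 183 with the combination. In SNU398 the pairs were 42.5 and 42.9, 41.7 and 38.4, 44.3 and 41.7, and 28.9 and 28.0. In both lines the combination libraries lay below all others and did not overlap them. SNU475 DPBS A had 1.72 RPM and DPBS B 0.0984, and A is the SNU475 library with the highest sum of hepatocyte markers.

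The pieces of this element did not move alike. The 4278-base HERVK-int locus that overlaps FGL1 (chr8:17765605-17769882) stood at 217 and 219 RPM in HepG2 DPBS and 141 and 153 in the combination. In a fit of the 8 HepG2 libraries it fell by 0.57 on the log2 scale (SE 0.04, adjusted p 0.0039), and in the 8 SNU398 libraries by 0.61 (SE 0.06, adjusted p 0.024). In the fit of all 24 libraries the SE of this locus was 0.74, with SNU475 DPBS at 1.59 and 0.0984 RPM among them, and the HepG2 change of -0.57 was not called (adjusted p 0.68). The 2284-base piece outside FGL1 (chr8:17770174-17772457, 2300 bases from it) had 10.2 and 10.3 RPM in HepG2 DPBS, 12.9 and 14.4 with decitabine and 11.2 and 13 with the combination. With decitabine its log2 change was 0.40, called in the fit of all 24 libraries (SE 0.14, adjusted p 0.031) but not in that of the 8 HepG2 libraries (SE 0.11, adjusted p 0.074). Its combination value of 0.23 was called in neither (adjusted p 0.26 in the 8 libraries). The FGL1 gene had scaled RPKM of 41.3 and 41.2 in HepG2 DPBS and 50.5 and 53.4 in the combination, a rise of 0.33 (adjusted p 0.012). The 4278-base locus overlaps FGL1 only in part. It runs past the edge of the gene body, because the next piece starts at chr8:17770174 and is 2300 bases from the gene. So in HepG2 the gene rose under the combination while the locus that overlaps it fell. In SNU398 both fell, with FGL1 at 2.85 and 3.11 in DPBS against 2.12 and 2.06 in the combination (log2 change -0.43, adjusted p 0.0033).

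**Figure D2:**
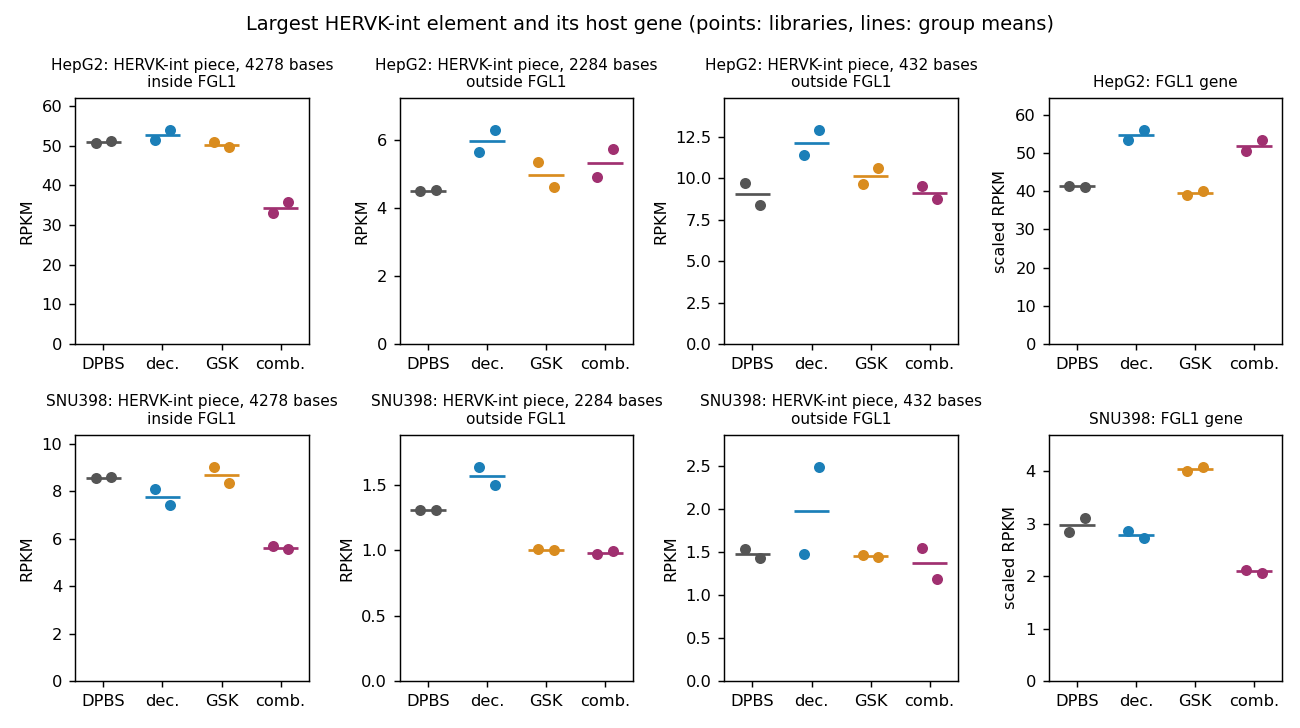
RPKM of 3 HERVK-int pieces of the chromosome 8 element, by treatment, in HepG2 and SNU398, with scaled RPKM of the FGL1 gene. The 4278-base piece overlaps FGL1 in part, and the pieces of 2284 and 432 bases lie outside it. Points are libraries and lines are group means. The 4278-base piece is lowest in the combination libraries of both lines, while FGL1 in HepG2 is higher there than with DPBS.

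Without this element, the HERVK-int changes took another form. In HepG2 the remaining HERVK-int RNA rose by 0.53 with decitabine (SE 0.09, adjusted p 5.1e-06) and fell by 0.48 with the combination (adjusted p 3.3e-05), with -0.03 for GSK-126. LTR5_Hs without it rose in HepG2 under all 3 treatments, by 0.40, 0.39 and 0.42. In SNU398 the remaining HERVK-int rose by 0.58 with GSK-126 (adjusted p 1.4e-05) and by 0.39 with the combination (adjusted p 8.7e-04), where all loci together had fallen. The order of the lines changed too: without the element, HERVK-int was 0.46 higher in SNU475 than in HepG2 and 0.55 lower in SNU398. LTR5_Hs was then above HepG2 in both, by 0.64 in SNU398 (adjusted p 1.3e-08) and 0.44 in SNU475 (adjusted p 9.1e-06). This element was left out after its values were seen.

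In HepG2, decitabine raised most HERVK and LTR5 subfamilies, but less than the table as a whole. Of the 12 subfamilies 8 rose and 1 fell. Over all 843 subfamilies, 85.1% were called higher and 3.80% lower. The median log2 change was 0.22 over the members and 0.66 over all subfamilies. HERVK11-int rose most among them, from 3.23 and 3.28 RPM to 8.69 and 9.17 (log2 change 1.33, SE 0.11, adjusted p 1.3e-13). HERVK22-int rose from 17.3 and 18.2 RPM to 24.3 and 24.9 (0.46), and HERVK9-int from 22.8 and 23.1 to 30.6 and 29.6 (0.39). For these 3 subfamilies the decitabine and DPBS libraries did not overlap. HERVK-int (0.09), HERVK14-int (-0.04) and HERVK3-int (0.09) did not pass the test, and LTR5 fell by 0.36. In HepG2 and SNU475 most of LTR5 is the 55-base locus inside CREB3L2, so its changes are mainly those of that locus. In HepG2 this locus had means of 3.20 RPM with DPBS, 2.40 with decitabine, 2.34 with GSK-126 and 1.86 with the combination. The level of the CREB3L2 gene is not given here. The LTR5 types moved little: LTR5A rose by 0.21, LTR5B by 0.22 and LTR5_Hs by 0.19. Without DPBS library A of HepG2 only 5 subfamilies were called. The calls of HERVK14C-int (adjusted p 0.15) and LTR5_Hs were among those lost. Leaving out decitabine B ended the LTR5A call (0.05, adjusted p 0.63), and LTR5 was lost without DPBS A (adjusted p 0.11) or decitabine A (0.052).

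GSK-126 in HepG2 gave a mixed result, with 5 subfamilies higher and 3 lower, against 72.6% higher and 6.29% lower over all subfamilies. HERVK13-int had its highest HepG2 level here, at 11.9 and 12.4 RPM against 7.04 and 7.41 with DPBS (log2 change 0.71, adjusted p 4.4e-10). HERVK11-int rose by 0.63 and HERVK9-int by 0.43, while HERVK14-int fell by 0.31, LTR5B by 0.25 and LTR5 by 0.30. The median change was 0.14 over the members and 0.40 over all subfamilies. With gene-based factors 7 rose and 2 fell, and LTR5 was no longer called (-0.26, adjusted p 0.066). The HERVK14-int call was lost without DPBS B (adjusted p 0.085) or GSK-126 A (0.19), and that of LTR5 without DPBS A (0.23) or GSK-126 A (0.19).

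Under the combination, most HERVK subfamilies fell in HepG2. Of the 12 subfamilies 2 rose (HERVK11-int by 0.79 and HERVK14C-int by 0.54) and 7 fell, against 36.5% higher and 35.1% lower over all subfamilies. HERVK-int fell from 238 and 240 RPM to 161 and 174 (log2 change -0.51, SE 0.06, adjusted p 9.3e-10). HERVK22-int fell to 14.9 and 15.1 RPM and HERVK9-int to 17.8 and 19.8, below their DPBS libraries, although each drug alone had raised both. HERVK13-int likewise fell to 5.95 and 5.72 RPM. The median was -0.20 over the members and 0.05 over all subfamilies. LTR5_Hs did not change detectably (24.1 and 24.3 RPM, log2 change -0.01). The summed hepatocyte markers were also lower in these libraries, at scaled RPKM of 6426 and 6394 against 9740 and 9808 with DPBS, and 3 fetal liver markers at 1538 and 1501 against 2566 and 2582. The part of this in the HERVK values was not tested. With gene-based factors 3 rose and 6 fell, and the small LTR5B change (-0.17) was lost (-0.12, adjusted p 0.13). It was also lost without DPBS A or DPBS B (adjusted p 0.10 for each) or combination B (0.19).

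Over all loci, the HepG2 combination was lower than each single drug. Compared with decitabine, 10 subfamilies were lower and 0 higher (85.6% called), led by HERVK22-int (-0.69), HERVK9-int (-0.67) and HERVK13-int (-0.63). Compared with GSK-126, 7 were lower and 0 higher (73.4% called), led by HERVK13-int (-1.0). The interaction of the drugs is the log2 change of the combination against DPBS less the sum of both single-drug changes. It was below 0 for 7 of 12 subfamilies and above 0 for 0 (88.6% called). It was -1.34 for HERVK13-int (adjusted p 1.7e-13), -1.17 for HERVK11-int, -1.10 for HERVK9-int and -0.93 for HERVK22-int. The median interaction was -0.39 over the members and -0.94 over all subfamilies. Over all subfamilies, 685 were called lower and 37 higher than with decitabine, and 521 lower and 98 higher than with GSK-126. The interaction over all subfamilies was below 0 for 723 and above 0 for 24. Outside gene bodies the counts were mixed: of 11 subfamilies the combination had 2 higher and 6 lower than decitabine (79.3% called over 585 subfamilies), and 4 higher and 4 lower than GSK-126 (61.0% called). The interaction there was above 0 for 2, HERVK14-int (1.65) among them, and below 0 for 5 (83.2% called). These comparisons share libraries and are not independent.

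**Figure D3:**
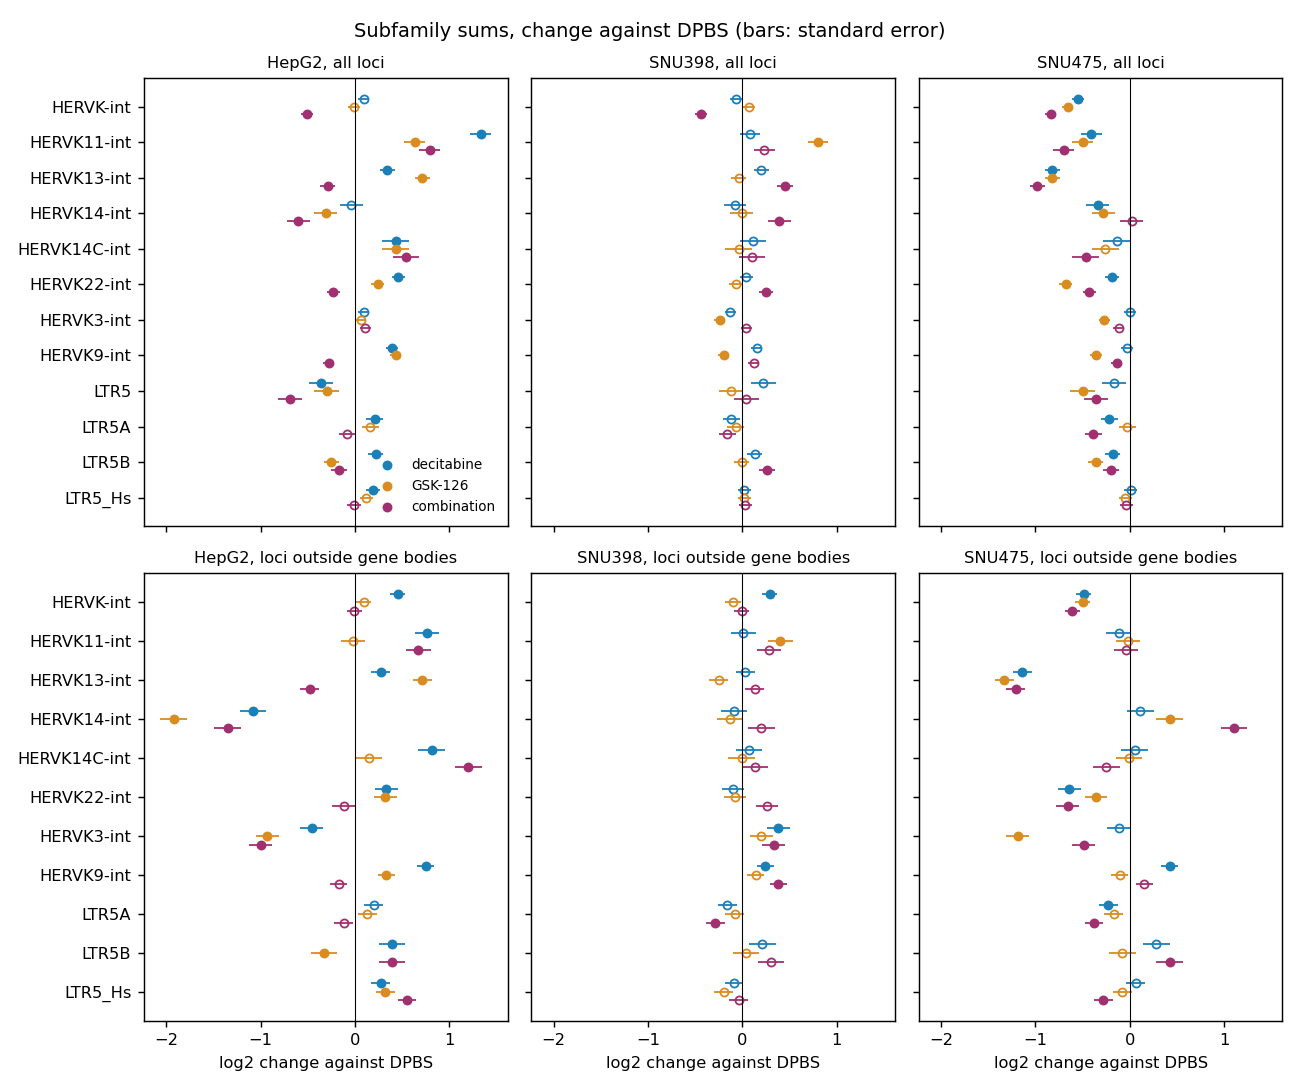
Log2 change against DPBS of each tested subfamily in the 3 lines under the 3 treatments, over all loci (top row, 12 subfamilies) and over loci outside gene bodies (bottom row, 11 subfamilies). Bars are the SE of the fit, filled points were called at an adjusted p under 0.05 and open points were not. HERVK11-int in HepG2 with decitabine is the highest point of the top row, and every called point of SNU475 in that row lies below 0.

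SNU398 changed less. With decitabine 0 of 12 subfamilies were called in limma, at 14.8% called over all subfamilies; 3 had an unadjusted p under 0.05, and voom on the recovered reads called 1. GSK-126 raised HERVK11-int from 2.47 and 2.34 RPM to 4.60 and 4.54 (log2 change 0.80, SE 0.11, adjusted p 3.6e-07). HERVK3-int (-0.24) and HERVK9-int (-0.20) were called lower, against 12.9% higher and 22.9% lower over all subfamilies. Both of these calls were lost with gene-based factors (-0.08 and -0.03), which moved the median of all subfamilies from -0.03 to 0.12. That scaling gave 3 members higher and 0 lower, and raised the higher share of all calls from 36.1% to 79.0%. Without DPBS B or GSK-126 B of SNU398, only HERVK11-int was called.

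The combination in SNU398 raised 4 subfamilies and lowered 1, against 49.2% higher and 3.44% lower over all subfamilies. HERVK13-int rose from 4.72 and 4.57 RPM to 6.54 and 6.48 (0.45), HERVK14-int from 1.77 and 1.95 to 2.45 and 2.74 (0.39), HERVK22-int by 0.25 and LTR5B by 0.26. HERVK-int fell from 44.8 in both libraries to 33.2 and 32.5 RPM (-0.44, adjusted p 1.0e-07), most of which is the chromosome 8 element. The median was 0.11 over the members and 0.22 over all subfamilies. HERVK11-int, high with GSK-126, stood at 3.03 and 2.80 RPM in the combination, and its interaction was -0.65. Interactions of HERVK3-int (0.41), HERVK14-int (0.48), HERVK22-int (0.29) and HERVK13-int (0.29) were above 0 and that of HERVK-int (-0.44) below, at 41.3% called. Over all subfamilies 313 interactions were called above 0 and 35 below. The HERVK14-int rise was lost without DPBS A (adjusted p 0.059) or combination B (0.068). Its interaction was lost without DPBS B, GSK-126 B or combination B, that of HERVK22-int without DPBS A, decitabine B or combination B, and that of HERVK13-int without any 1 of the SNU398 libraries other than DPBS B and GSK-126 B. With gene-based factors only 1 was higher and 2 lower.

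SNU475 moved downwards under every treatment. With decitabine 7 of 12 subfamilies fell and 0 rose, against 68.9% lower and 4.74% higher over all subfamilies. With GSK-126 9 fell and 0 rose (52.4% lower and 4.51% higher), and with the combination 9 fell and 0 rose (72.2% and 5.46%). HERVK-int went from 10.8 and 9.85 RPM with DPBS to 6.62 and 7.23, 6.23 and 6.46, and 5.52 and 5.57, changes of -0.55, -0.66 and -0.84. HERVK13-int went from 11.1 and 10.7 RPM to 6.21 and 5.69, 5.96 and 5.89, and 5.06 and 5.49 (-0.82, -0.82 and -0.98). For both, every treated library lay below both DPBS libraries. HERVK22-int fell most with GSK-126, from 17.1 and 15.7 to 10.5 and 9.66 RPM (-0.68). LTR5_Hs was not called under any treatment. The median change over the members was -0.18, -0.36 and -0.37, and over all subfamilies -0.34, -0.23 and -0.39.

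Without SNU475 DPBS A, the library with hepatocyte transcripts, 5, 9 and 7 subfamilies fell under decitabine, GSK-126 and the combination. HERVK-int then changed by -0.48, -0.60 and -0.78 and HERVK13-int by -0.80, -0.80 and -0.96. The calls lost were HERVK22-int and LTR5B under decitabine (adjusted p 0.17 and 0.15) and HERVK9-int and LTR5B under the combination (0.14 and 0.11). Leaving out other SNU475 libraries ended more of these small calls. Under decitabine HERVK14-int and LTR5A were lost without DPBS B (adjusted p 0.14 and 0.25), under GSK-126 HERVK14-int without DPBS B or GSK-126 A (0.29 for each), and under the combination LTR5 without DPBS B (0.069) or combination A (0.18). In SNU475 the combination differed little from decitabine: HERVK-int (-0.30) and HERVK22-int (-0.24) were lower, at 4.39% called. The interaction was above 0 for 6 subfamilies and below 0 for 0 (30.2% called), led by HERVK13-int (0.67) and HERVK14-int (0.64). Over all subfamilies the interaction was called above 0 for 223 and below 0 for 32. Without SNU475 DPBS A it was above 0 for 4, and HERVK9-int and LTR5B were lost.

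Treatment effects were then compared between lines, for decitabine and the combination. The decitabine effect in SNU398 was above that in HepG2 for 1 of 12 subfamilies and below it for 5 (80.3% called over all subfamilies), and the combination effect was above for 6 and below for 2 (61.6% called). SNU475 minus HepG2 was above 0 for 0 and below for 8 with decitabine (91.1% called), and 1 and 6 with the combination (68.8%). SNU475 minus SNU398 was below 0 for 5 with decitabine (63.3% called) and 8 with the combination (80.3%), and above 0 for 0 in both. Of the calls over all subfamilies, 4.43%, 68.8%, 2.73%, 14.3%, 4.31% and 3.99% were above 0 in these 6 comparisons, in that order.

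Loci outside every gene body, which host transcripts reach less directly, gave a partly different picture in 11 subfamilies with enough signal. In HepG2, decitabine raised 8 and lowered 2 (86.0% called over 585 subfamilies), with a median of 0.33 against 0.71 over all. HERVK9-int outside genes rose from 5.24 and 4.98 RPM to 9.29 and 8.57 (log2 change 0.75, SE 0.09, adjusted p 5.4e-11). HERVK-int outside genes rose from 19.9 and 20.3 to 27.0 and 28.2 RPM (0.45), although all loci together had not passed the test. Most of this outside sum is pieces of the chromosome 8 element. With decitabine their mean RPKM went from 4.50 to 5.96 (2284 bases) and from 9.05 to 12.1 (432 bases). HERVK14C-int rose from 0.153 and 0.381 RPM to 0.822 and 0.829 with decitabine and to 1.32 and 1.16 with the combination (0.81 and 1.20). LTR5_Hs outside genes rose under all 3 treatments, from 2.94 and 2.64 RPM to 3.70 and 3.22, 3.81 and 3.43, and 4.24 and 4.38. Its changes were 0.27, 0.32 and 0.55.

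HERVK14-int and HERVK3-int fell outside genes in HepG2 under every treatment. HERVK14-int went from 2.59 and 2.39 RPM to 0.932 and 0.900 with decitabine, 0.302 and 0.275 with GSK-126 and 0.736 and 0.611 with the combination, changes of -1.08, -1.92 and -1.35. HERVK3-int went from 3.60 and 3.70 RPM to 2.40 and 2.62, 1.62 and 1.72, and 1.47 and 1.69 (-0.46, -0.93 and -1.0), whereas its sum over all loci was not called. GSK-126 gave 4 higher and 3 lower (63.6% called) and the combination 4 and 3 (66.7% called).

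In SNU475, HERVK13-int outside genes fell from 6.21 and 5.91 RPM to 2.55 and 2.41, 1.92 and 2.33, and 2.35 and 2.31 (-1.14, -1.33 and -1.21). HERVK3-int outside genes fell most with GSK-126, from 5.93 and 5.6 to 2.10 and 2.38 RPM (-1.19, adjusted p 6.7e-13). A rise was seen there too: HERVK14-int went from 0.642 and 1.10 RPM to 2.57 and 2.25 with the combination (1.10, adjusted p 7.2e-10). Counts in SNU475 were 1 higher and 4 lower with decitabine (65.8% called), 1 and 4 with GSK-126 (60.0%) and 2 and 6 with the combination (74.5%). Without SNU475 DPBS A they were 1 and 3, 0 and 3, and 2 and 5, and the HERVK14-int rise with GSK-126 (0.42) was among the calls lost (0.18, adjusted p 0.37). In SNU398, decitabine raised HERVK-int (0.29), HERVK3-int (0.38) and HERVK9-int (0.24) outside genes, at 20.3% called, and none of the 3 calls was left without SNU398 decitabine A. GSK-126 raised 1 there (26.2% called) and the combination raised 2 and lowered 1 (49.7% called).

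Among single loci, calls were mostly rises in HepG2 with decitabine, less clearly so with GSK-126, and mostly falls in SNU475. The HepG2 combination had both. HepG2 decitabine raised 58 of 237 loci and lowered 9, against 31.8% higher and 2.62% lower over all 61166 loci tested. GSK-126 raised 28 and lowered 14 (17.1% and 3.08% over all), and the combination raised 38 and lowered 33 (14.5% and 8.66%). The last of these splits was 19 and 28 among 123 loci with 0.5 RPM in 2 libraries, and 16 and 17 in the fit of the 8 HepG2 libraries. The GSK-126 split was 12 and 11 in the first of these settings and 10 and 7 in the second. In the main fit it was 19 and 5 inside gene bodies and 9 and 9 outside. SNU398 had 3 higher and 0 lower with decitabine (1.34% and 0.387% over all), 6 and 9 with GSK-126 (2.94% and 3.94%) and 11 and 1 with the combination (4.42% and 1.08%). SNU475 had 15 higher and 29 lower with decitabine (2.62% and 8.68% over all), 6 and 26 with GSK-126 (1.67% and 4.98%) and 14 and 43 with the combination (3.30% and 11.9%). The share of members called was below that of all loci in HepG2 with decitabine and GSK-126 and above it in the HepG2 combination and in SNU475 under each treatment, a difference for which no test was made. Without SNU475 DPBS A the SNU475 counts were 12 and 17, 3 and 14, and 11 and 31. The GSK-126 count there was also 4 and 14 without GSK-126 A and 3 and 12 without GSK-126 B.

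The few SNU398 calls fell in number when some single libraries were left out, where the SE is also larger. Decitabine gave 0 calls without DPBS A or decitabine A, and 1 without decitabine B. GSK-126 gave 5 higher and 4 lower without DPBS A, 3 and 3 without DPBS B, and 4 and 5 without GSK-126 A. The combination gave 3 and 0 without DPBS A, 4 and 0 without DPBS B, and 5 and 1 without combination A.

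Calls in HepG2 were made among internal regions and LTRs. Of 168 HERVK internal loci tested, decitabine raised 44 and lowered 6, and of 69 LTR5-type loci it raised 14 and lowered 3. Both counts of rises are smaller shares than the 31.8% of all loci tested. HERVK11-int had 11 of 17 loci higher and 0 lower, with a median of 1.35. A locus was tested if it had 0.2 RPM in 2 libraries, so it could enter through its treated libraries alone, which favours rises. Only 3 HERVK11-int loci reached 0.2 RPM in HepG2 DPBS, and some of the 17 can be pieces of the same element. Of all 237 loci, 36 inside gene bodies rose with decitabine and 5 fell, and outside 22 rose and 4 fell. With GSK-126, 8 of 14 HERVK13-int loci rose and 0 fell. In SNU475 7, 7 and 8 of these 14 HERVK13-int loci fell under decitabine, GSK-126 and the combination, and 0 rose under any of them. These counts stand against the smaller shares of all loci given above. HERVK13-int has 68 loci in 23 elements, so some of the 14 can be pieces of the same element and not separate cases. The decitabine call of the ERVK13-1 locus, described below, was lost without SNU475 DPBS A. The HepG2 interaction was above 0 for 9 member loci and below 0 for 57 (33.0% called over all loci).

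Some loci were near silent in HepG2 with DPBS. A 4101-base HERVK22-int locus (chrX:25914486-25918586), 2825 bases from the nearest gene RP11-86A5.1, had 0 reads in both DPBS and both GSK-126 libraries. It had 0.435 and 0.427 RPM with decitabine and 0.492 and 0.640 with the combination. Against the limit of 3 reads per library, this is at least 7.14-fold higher with decitabine and at least 9.37-fold higher with the combination. The same locus in SNU398 went from 0.0164 in both DPBS libraries to 0.127 and 0.0943 with decitabine, 0.176 and 0.123 with GSK-126 and 0.160 and 0.164 with the combination, and it was at 0 in SNU475. So decitabine libraries were above DPBS in both lines where the locus had reads, and GSK-126 libraries in SNU398.

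A HERVK14C-int locus (chr1:20253926-20257009), 3816 bases from PLA2G2E, had 0.0185 and 0.0432 RPM in HepG2 DPBS, 0.571 and 0.537 with decitabine and 1.13 and 0.931 with the combination. The ratio to DPBS was 18.4 (exact 95% counting interval 5.93 to 92.2) with decitabine and 34.2 (11.2 to 170) with the combination, and such intervals cover counting error only. GSK-126 left it at 0.0216 in both libraries, and it was at 0 in the other lines. This locus lies outside gene bodies, and its level under the combination makes up most of the HERVK14C-int sum outside genes given above.

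**Figure D4:**
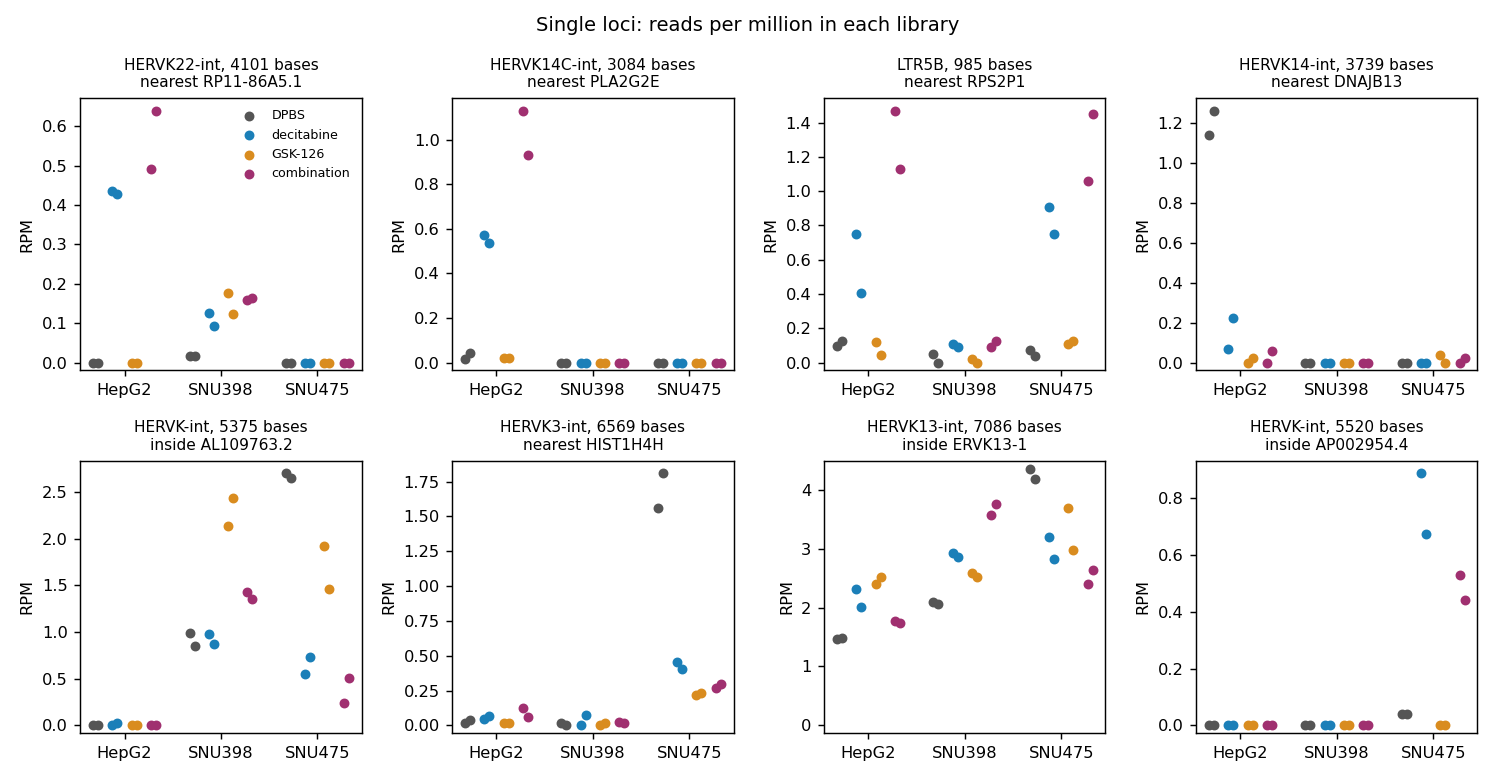
RPM of 8 member loci in each of the 24 libraries, by line and treatment, with 1 point per library. The HERVK22-int, HERVK14C-int and LTR5B panels rise with decitabine and the combination in HepG2, the HERVK14-int panel falls in HepG2 under every treatment, and the HERVK3-int panel falls in SNU475.

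An LTR5B locus on chromosome 20 rose in both HepG2 and SNU475. It lies at chr20:32723400-32724384, 12304 bases from the nearest gene RPS2P1. In HepG2 it had 0.0965 and 0.125 RPM with DPBS, 0.753 and 0.404 with decitabine, 0.121 and 0.0463 with GSK-126 and 1.47 and 1.13 with the combination. In SNU475 the pairs were 0.0758 and 0.0394, 0.909 and 0.753, 0.106 and 0.124, and 1.06 and 1.45. The decitabine and combination libraries lay above DPBS without overlap in both lines. Except for decitabine in HepG2, the rule that named this locus required such non-overlap. Log2 changes were 1.64 (SE 0.28) and 2.73 in HepG2 and 2.57 and 3.10 in SNU475 for decitabine and the combination, while GSK-126 was not called (-0.23 and 0.46). The HepG2 interaction of this locus was above 0 (1.31, adjusted p 0.013). In SNU398 it did not pass (0.71 with decitabine, adjusted p 0.31), and the decitabine effect in SNU475 exceeded that in SNU398 by 1.85 (adjusted p 0.0063).

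The HERVK-int locus beside it in the same element (chr20:32721509-32723398) followed. In HepG2 it had 0.0378 and 0.0208 RPM with DPBS, 0.183 and 0.180 with decitabine and 0.306 and 0.437 with the combination. In SNU475 it had 0 in both DPBS libraries, 0.138 and 0.134 with decitabine and 0.291 and 0.357 with the combination, at least 2.35-fold and 5.61-fold higher than the limit of 3 reads per library. An internal region and its LTR were thus both higher in the same libraries of these lines.

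HERVK11-int loci inside VPS54, a gene of vesicle tethering, were among the HepG2 loci that rose most with decitabine. The locus at chr2:64221110-64222296 had 0.0392 and 0 RPM with DPBS, 1.0 and 0.762 with decitabine, 0 and 0.0463 with GSK-126 and 0.337 and 0.319 with the combination. The ratio to DPBS was 43.9 (11.7 to 369) with decitabine and 16.3 (4.02 to 143) with the combination. The VPS54 gene did not follow: its scaled RPKM was 16.1 and 15.8 with DPBS and 14.9 and 14.1 with decitabine (log2 change -0.13, adjusted p 0.055), and it fell by 0.87 with the combination. Another HERVK11-int locus, inside the pseudogene PFN1P11 (chr10:104599001-104601447), had 0 and 0.0220 RPM with DPBS, 0.480 and 0.470 with decitabine and 0.492 and 0.350 with the combination. One more (chr6:158719596-158723173, inside RP11-732M18.3) rose under all 3 treatments, from 0.386 and 0.691 RPM to 1.23 and 1.39, 1.64 and 1.61, and 1.5 and 1.71, while the gene RP11-732M18.3 fell with decitabine (-0.32) and the combination (-0.54). These are loci of the subfamily that had the highest HepG2 change.

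In ABCD3, a peroxisomal fatty acid transporter gene, a HERVK9-int locus rose with either drug but not with both. At chr1:94911262-94914216 it had 0.774 and 1.11 RPM with DPBS, 3.24 and 2.85 with decitabine, 2.96 and 2.46 with GSK-126 and 0.644 and 1.02 with the combination. The changes were 1.61, 1.45 and -0.17, and the interaction was -3.23 (SE 0.34, adjusted p 2.4e-07). The ABCD3 gene itself fell under each treatment, by 0.50, 0.73 and 1.08. In SNU475 the locus fell with decitabine (-1.04) and the combination (-0.93), calls that were lost without DPBS A of that line (adjusted p 0.083 and 0.12), and its decitabine effect minus that in HepG2 was -2.65 (adjusted p 4.2e-06).

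A pair of HERVK14-int loci lost nearly all their RNA in HepG2 with GSK-126 and the combination, and less of it with decitabine. The locus at chr11:73650576-73654314, 7050 bases from DNAJB13, had 1.14 and 1.26 RPM with DPBS, 0.0673 and 0.224 with decitabine, 0 and 0.0224 with GSK-126 and 0 and 0.0598 with the combination. With decitabine it fell by 2.48 on the log2 scale (SE 0.24, adjusted p 2.9e-08). Its DPBS level was 111 times that with GSK-126 (19.5 to 4422) and 40.1 times that with the combination (10.9 to 335). The neighbouring locus (chr11:73654622-73657896) went from 1.24 and 0.943 RPM to 0.386 and 0.291, 0.0197 and 0, and 0.0622 and 0.0884. These loci account for most of the HERVK14-int sum outside genes in HepG2 DPBS, and both lines other than HepG2 had at most 0.0374 RPM at the first of them.

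Several loci moved in opposite directions in different lines, though not always under the same treatment. A HERVK-int locus inside AL109763.2 (chr21:19935622-19940996) had 0.994 and 0.849 RPM in SNU398 DPBS and 2.13 and 2.43 with GSK-126 (log2 change 1.22, adjusted p 0.0013). In SNU475 it went from 2.70 and 2.65 RPM to 0.554 and 0.731 with decitabine and 0.242 and 0.505 with the combination (-1.91 and -2.61). The gene AL109763.2 moved the same way, up by 0.74 with GSK-126 in SNU398 and down by 0.88 and 1.25 in SNU475. Another HERVK-int locus (chr3:101411706-101417184), 6080 bases from RPL24, had 1.16 and 1.46 RPM in HepG2 DPBS and 2.21 and 1.84 with decitabine (0.59), but in SNU475 it went from 1.55 and 1.41 to 0.751 and 0.712 (-0.92). Its SNU398 rise with GSK-126 (0.58, adjusted p 0.036) was lost without any 1 of the DPBS and GSK-126 libraries of that line. The decitabine effect in SNU475 minus that in HepG2 was -1.52 for this locus (adjusted p 4.5e-05), and the combination effect in SNU475 minus that in SNU398 was -3.16 for the AL109763.2 locus (adjusted p 7.8e-07).

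A HERVK9-int locus in TMCC1-AS1 (chr3:129621256-129625645) fell with GSK-126 in SNU398, from 3.61 in both libraries to 1.56 and 1.92 RPM (-1.02, adjusted p 2.0e-04), and rose with it in HepG2, from 1.12 and 1.32 to 2.05 and 2.0 (0.69). In SNU475 it rose with GSK-126 by 0.60 (adjusted p 0.024), a call lost without any 1 of the DPBS and GSK-126 libraries of that line (adjusted p 0.070 to 0.19). The gene TMCC1-AS1 moved the same way with GSK-126, by 0.55 in HepG2, -0.40 in SNU398 and 0.26 in SNU475, and each was called.

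ERVK13-1, a noncoding gene named for its HERVK13 content and with the CG-rich promoter printed above, holds a 7086-base HERVK13-int locus (chr16:2711289-2718374). In HepG2 the locus had 1.47 and 1.49 RPM with DPBS, 2.32 and 2.02 with decitabine, 2.40 and 2.53 with GSK-126 and 1.78 and 1.74 with the combination. It rose with each single drug (0.52 and 0.70), the combination value of 0.24 was not called (adjusted p 0.16), and the interaction was -0.98. In SNU398 it had 2.10 and 2.07 RPM with DPBS and 3.58 and 3.77 with the combination (0.79, adjusted p 1.0e-04). Its SNU398 rise with decitabine (0.45, adjusted p 0.045) was lost without any 1 of the DPBS, decitabine and GSK-126 libraries of that line (adjusted p 0.052 to 0.24). In SNU475 it fell from 4.36 and 4.19 RPM to 3.20 and 2.83 with decitabine and 2.40 and 2.65 with the combination (-0.49 and -0.74), and the decitabine call was lost without SNU475 DPBS A (adjusted p 0.061). The combination effect in SNU475 minus that in SNU398 was -1.53 (adjusted p 1.3e-06). The gene as counted rose in HepG2 by 0.35, 0.40 and 0.50 and in SNU398 with the combination by 0.24, and was not called in SNU475.

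ERVK3-1, a gene derived from a HERVK3 element, held the most abundant HERVK3-int RNA. Its element at chr19:58817484-58826205 had means of 9.40 RPM in HepG2 DPBS, 17.3 in SNU398 and 14.0 in SNU475. The 2030-base locus in it (chr19:58822615-58824644) rose in HepG2 from 4.74 and 4.50 RPM to 6.84 and 6.74 with the combination (0.55, adjusted p 2.5e-04). LINC00839, a noncoding gene with 9 CG in its promoter, held the most abundant HERVK9-int RNA of SNU398 and SNU475. Its element (chr10:42982469-42989556) had means of 16.6 RPM in SNU398 DPBS and 10.3 in SNU475, but 0 in HepG2, where decitabine gave 0.126 and the combination 0.223. The 5408-base locus of it (chr10:42982469-42987876) had 0 and 0 RPM in HepG2 DPBS, 0.162 and 0.0433 with decitabine and 0.124 and 0.173 with the combination. Its 1703-base locus (chr10:42987854-42989556) fell in SNU475 with GSK-126, from 3.59 and 3.85 to 2.37 and 1.80 RPM (-0.82, adjusted p 0.0029).

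LINC00662 held a HERVK11-int locus (chr19:28196416-28203119) that rose in SNU398 with GSK-126 alone. It had 0.362 and 0.248 RPM with DPBS, 0.255 and 0.147 with decitabine, 1.58 and 1.30 with GSK-126 and 0.188 and 0.221 with the combination. The GSK-126 change was 1.94 (SE 0.28, adjusted p 4.7e-05) and the interaction -1.90 (adjusted p 0.0064). The LINC00662 gene rose with it, from scaled RPKM of 3.14 and 3.0 to 5.91 and 5.96 (0.85). Other SNU398 calls were less firm. LTR5B at chr14:103991253-103992241 fell with GSK-126 from 1.04 and 0.744 to 0.276 and 0.338 RPM (-1.27), and LTR5_Hs at chr2:187386256-187387099 from 1.18 and 1.17 to 0.553 and 0.427 (-1.12). HERVK3-int at chr16:34751421-34758424 rose with decitabine (1.06) and the combination (1.05), and LTR5_Hs at chr1:148356350-148357322 with the combination (0.89). Each of these 4 lost a call without 1 or more of the SNU398 libraries, for example with adjusted p of 0.10 without DPBS A, 0.088 without DPBS A, 0.30 without DPBS A and 0.16 without DPBS B.

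SNU475, where the sums fell, also had loci that rose. A HERVK-int locus inside AP002954.4 (chr11:118594396-118599915) had 0.0386 RPM in both DPBS libraries, 0.889 and 0.673 with decitabine, 0 in both with GSK-126 and 0.530 and 0.442 with the combination. It rose by 2.66 with decitabine (SE 0.16, adjusted p 7.0e-11) and by 2.07 with the combination, and it was at 0 in HepG2 and SNU398. A HERVK9-int locus 17406 bases from SLC26A9 (chr1:205863345-205864770) went from 0.321 and 0.394 RPM to 1.48 and 1.43 with decitabine (1.77) and 0.823 and 1.39 with the combination (1.36). A HERVK14-int locus (chr11:121107637-121108329) had 0 and 0.0395 RPM with DPBS, 0.297 and 0.251, 0.427 and 0.570, and 1.19 and 0.988 under decitabine, GSK-126 and the combination. Its combination level was 56.1 times that with DPBS (15.1 to 470).

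Among the SNU475 loci that fell most was a pair near a histone gene. A 6569-base HERVK3-int locus (chr6:26288665-26295233), 2903 bases from HIST1H4H, had 1.56 and 1.81 RPM with DPBS, 0.453 and 0.407 with decitabine, 0.217 and 0.230 with GSK-126 and 0.269 and 0.296 with the combination. The changes were -1.75, -2.46 and -2.22, the interaction was 1.99 (adjusted p 0.0033), and every treated library lay below both DPBS libraries. This locus was named for its GSK-126 and combination changes, under a rule that requires such non-overlap. Its 518-base neighbour (chr6:26295547-26296064) went from 0.246 and 0.373 RPM to at most 0.0632 in any treated library. In HepG2 and SNU398 the 6569-base locus had at most 0.125 RPM. A HERVK22-int locus in ZNF675, a KRAB zinc finger gene (chr19:23739804-23740651), fell with GSK-126, from 4.89 and 4.68 to 2.60 and 2.54 RPM (-0.87, adjusted p 0.010), and was near 0 in the other lines. This call was lost without SNU475 DPBS A (adjusted p 0.085), and the ZNF675 gene fell by 0.24 with GSK-126.

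Genes that act on endogenous retroviruses were read from the gene table. All 25 listed repressors were tested. In HepG2 10 rose and 12 fell with decitabine, 9 and 15 with GSK-126, and 9 and 14 with the combination, at 54.2%, 52.6% and 66.5% of all 19377 genes called. In SNU398 the counts were 4 and 8, 2 and 19, and 2 and 16 (38.8%, 52.4% and 47.3% of genes called), and in SNU475 9 and 12, 8 and 14, and 11 and 12. Over all genes SNU475 had 24.2% higher and 27.3% lower with decitabine, 21.5% and 28.5% with GSK-126, and 25.3% and 29.6% with the combination. UHRF1, which guides DNMT1 to replicating DNA, fell in HepG2 by 0.61, 1.71 and 0.74 and rose in SNU475 by 0.74, 0.66 and 0.84. HELLS, a chromatin remodeller needed for DNA methylation, fell in HepG2 by 0.54, 1.44 and 1.68. TRIM28, the corepressor recruited by KRAB zinc finger proteins, fell in SNU398 by 0.28, 0.46 and 0.21 and rose in SNU475 by 0.25, 0.40 and 0.41. EZH2, the target of GSK-126, named like TRIM28 for its role and not its change, fell in HepG2 (-0.47, -0.88 and -0.71) and rose in SNU475 (0.25, 0.51 and 0.44). In SNU398 with GSK-126, the heterochromatin protein gene CBX1 fell by 1.11 and DNMT3B by 1.04.

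Among 8 of 10 activators of LTR5 or their partners with enough signal, KLF4, a factor known to bind LTR5_Hs, rose in HepG2 with the combination by 1.29. HepG2 had 5 higher and 1 lower with decitabine, 4 and 0 with GSK-126 and 4 and 3 with the combination. SNU398 had 1 and 4, 4 and 3, and 3 and 3, and SNU475 2 and 5, 1 and 3, and 2 and 4. These counts and those that follow stand against the gene shares above, such as 38.8% of all genes called in SNU398 with decitabine and 66.5% in the HepG2 combination. Of 11 tested restriction and RNA-editing genes, 10 rose and 0 fell in SNU398 with decitabine, 3 and 1 with GSK-126, and 8 and 0 with the combination. APOBEC3C, a cytidine deaminase that mutates retroviral DNA, rose there by 1.91 with decitabine and 1.85 with the combination, and fell in HepG2 by 1.17, 1.63 and 0.84. BST2, which tethers budding viruses to the cell surface, rose in SNU398 with decitabine (1.29) and in SNU475 under every treatment (1.28, 0.99 and 1.52). HepG2 had 3 higher and 4 lower, 0 and 6, and 5 and 3, and SNU475 had 6 and 2, 7 and 1, and 6 and 2. Without SNU398 decitabine A, the decitabine counts of that line were 3 and 7, 1 and 3, and 10 and 0 for repressors, activators and restriction genes. Without SNU475 DPBS A, the repressor counts of that line were 7 and 10, 8 and 12, and 8 and 11, the activator counts 2 and 4, 1 and 3, and 2 and 4, and the restriction gene counts 6 and 2, 6 and 1, and 6 and 3. The lists were chosen with earlier results of these data known.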

How the data were processed

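Total RNA of each of the 24 samples was isolated with Trizol and a DNase I step. Ribosomal RNA was removed, and directional KAPA libraries were read in single 75-base reads on a NextSeq 500, per the labels' protocols. The authors aligned reads with HISAT2 to hg19 and counted them with featureCounts, per the submitters' processing notes. The strand setting, the annotation and how reads with several matches were handled were not given in the sources used here. Reads of near-identical copies may be split, lost or counted at another copy, and overlapping antisense transcripts cannot be told apart. The authors deposited RPKM values for genes and for repeat loci. Steps between low values gave back whole reads for 100.0% of values within 0.15 reads.

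RPM per locus was RPKM times length in kb, summed per subfamily over all loci and over loci that overlap no gene body by any base. Simple repeats, RNA repeats and low-complexity sequence were left out of the background by name, which kept 4494509 loci. Elements are member loci joined within 1000 bases, without regard to strand. Features needed 1 RPM (subfamilies), 0.2 RPM (loci) or 0.5 RPKM (genes) in 2 libraries. A pseudocount of 0.5 RPM, 0.1 RPM or 0.5 RPKM was added before log2, which understates the changes of low features. Genes were scaled by median-of-ratios factors over 8211 genes, and repeats were not scaled. All 24 libraries were fitted together, with a mean for each of the 12 groups, in limma 3.58.1 (R 4.3.3; trend and robust). Tests were two-sided, with Benjamini-Hochberg adjustment over all features tested, and a call is an adjusted p under 0.05. The script was tested on simulated data. Loci with 1 to 3 reads in a group are given as ratios with exact 95% intervals, and loci at 0 as bounds from 3 reads per library.

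All subfamilies are named. Named loci are the 5 with the highest DPBS level per line, the 4 highest and 2 lowest called changes per treatment (libraries not overlapping, at least 0.3 RPM in either group) and the 2 highest interactions per line. Genes of the lists are named if called with a log2 change of at least 1, at most 3 per list and comparison. Members, lists and rules were chosen with earlier results of these data known. Alternatives were other pseudocounts and filters, gene-based factors, voom on recovered reads, a replicate block, fits of 1 line, distance from genes, and leaving out each library. Leaving out the chromosome 8 element, haplotype sequence, and single libraries in the gene lists was chosen after seeing the data. Promoters are from RefSeq.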

Additional observations from a re-analysis of the deposited data

Results flagged for a closer look

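Effects of the same treatment differed between lines for 42 of 72 tests over the 12 subfamilies, by the interaction of line and treatment in limma with adjustment over all 843 subfamilies. The tests cover decitabine and the combination; GSK-126 effects were not compared between lines. Over all subfamilies the share called was 61.6% to 91.1% in these 6 comparisons, above that of the members in 5 of them. The 14 given here are those whose effects were called in opposite directions in both lines, a choice made after the values were seen. Without SNU475 DPBS A, 11 of the 14 were still called in opposite directions: HERVK22-int and LTR5B with decitabine (SNU475 effects of -0.13 and -0.15) and LTR5B with the combination (-0.17) were not called in SNU475. Outside gene bodies only 2 of the 14 were, and LTR5B there had positive values in all 3 lines with the combination (0.39, 0.30 and 0.42) and in HepG2 and SNU475 with decitabine (0.39 and 0.28). SNU475 was harvested on day 21 and the other lines on day 14, so line and time cannot be told apart there.

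For the combination, SNU398 minus HepG2 was 0.73 for HERVK13-int (adjusted p 4.5e-07), 1.0 for HERVK14-int (3.0e-06), 0.48 for HERVK22-int (3.5e-05) and 0.43 for LTR5B (7.7e-04), each rising in SNU398 and falling in HepG2. For decitabine, SNU475 minus HepG2 was -1.74 for HERVK11-int (adjusted p 1.0e-12), -1.16 for HERVK13-int (6.7e-12), -0.65 for HERVK22-int (1.1e-07), -0.44 for LTR5A (0.0018) and -0.40 for LTR5B (7.4e-04), each rising in HepG2 and falling in SNU475. For the combination, the same difference was -1.49 for HERVK11-int (1.2e-10) and -1.01 for HERVK14C-int (2.6e-05). SNU475 minus SNU398 was -1.43 for HERVK13-int (1.4e-13), -0.68 for HERVK22-int (9.6e-08) and -0.45 for LTR5B (2.8e-04) under the combination. Over all 843 subfamilies the median of these differences was 0.20, -0.98, -0.42 and -0.56 for the 4 comparisons in that order.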

How the results depend on the processing

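Of 6572 log2 changes recomputed under the alternatives, 6296 kept their direction and side of the threshold, 190 were no longer called, 43 became called and 43 turned direction. Most of them (4704) came from leaving out 1 library, where 4593 stayed the same. In most of these refits the library left out was in no group of the comparison. There the log2 change cannot move, and only its SE and adjusted p can. The counts of 4593 and 6296 are therefore no measure of how stable the changes are. Outside gene bodies only 76 of 132 stayed the same and 20 turned direction. At least 10000 bases from genes, 43 of 84 stayed the same and 21 turned direction. Counts of called subfamilies moved by over 1.5 times in these cases. SNU398 with decitabine, at 0, had 1 with gene-based factors, 1 with voom, 3 outside gene bodies, 1 at least 10000 bases from genes and 1 in the fit of its 8 libraries. Outside gene bodies SNU398 had 1 with GSK-126 (3 over all loci) and 3 with the combination (5), and SNU475 had 5 with GSK-126 (9). At least 10000 bases away, where 7 subfamilies were tested, the last of these were 2 and 3; outside gene bodies 11 were tested, against 12 over all loci. Counts of called loci were 9 for SNU398 with GSK-126 at a pseudocount of 0.05 RPM (15 in the report). With 0.5 RPM needed, which left 123 loci, HepG2 had 38, 23 and 47 (67, 42 and 71). Voom gave 27 for HepG2 with GSK-126, 6 for SNU398 with decitabine and 28 for SNU475 with decitabine (42, 3 and 44). Fits of the 8 libraries of a line gave 43, 17 and 33 in HepG2, 1 with decitabine and 6 with the combination in SNU398 (3 and 12), and 17, 10 and 23 in SNU475 (44, 32 and 57), with fewer degrees of freedom. Outside those named, the cause was not tested.

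Outside gene bodies these log2 changes had the opposite sign to all loci. In HepG2 they were HERVK3-int (-0.46, -0.93 and -1.0 for decitabine, GSK-126 and the combination), HERVK11-int with GSK-126 (-0.02), LTR5B (0.39) and LTR5_Hs (0.55) with the combination, and the interactions of HERVK14-int (1.65) and HERVK3-int (0.40). In SNU398 they were HERVK-int (0.29) and HERVK3-int (0.38) with decitabine, HERVK3-int (0.20) and HERVK9-int (0.14) with GSK-126, and the HERVK3-int interaction (-0.26). In SNU475 they were HERVK14-int (0.11), HERVK9-int (0.42) and LTR5B (0.28) with decitabine, HERVK14-int (0.42) with GSK-126, HERVK9-int (0.15) and LTR5B (0.42) with the combination, and the HERVK9-int interaction (-0.16). At least 10000 bases from genes they were, in HepG2, HERVK3-int (-0.29, -0.86 and -0.96), HERVK-int with GSK-126 (0.31) and the combination (0.46), HERVK9-int (0.75), LTR5B (1.45) and LTR5_Hs (0.54) with the combination, and the LTR5B interaction (0.53). In SNU398 they were HERVK-int (-0.40), HERVK9-int (0.13) and LTR5_Hs (-0.67) with GSK-126, HERVK-int with the combination (0.13), and the interactions of HERVK-int (0.24) and LTR5_Hs (0.71). In SNU475 they were HERVK9-int (1.05) and LTR5B (0.69) with decitabine, HERVK9-int (0.17) with GSK-126, HERVK9-int (0.72) and LTR5B (0.90) with the combination, and the HERVK9-int interaction (-0.50). Without the chromosome 8 element, LTR5_Hs in the HepG2 combination was 0.42 and HERVK-int in the SNU398 combination 0.39.

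Leaving out each library in turn gave called subfamilies of 5 to 9, 6 to 9 and 8 to 9 in HepG2, 0 to 1, 1 to 3 and 4 to 5 in SNU398, and 5 to 7, 8 to 9 and 6 to 9 in SNU475. Called loci were 58 to 70, 29 to 44 and 50 to 76 in HepG2, 0 to 3, 6 to 16 and 3 to 12 in SNU398, and 29 to 49, 15 to 33 and 41 to 59 in SNU475. Where 1 library is left in a group, it is assumed to vary like the other groups. The labels do not say whether a replicate letter marks a shared batch. Correlations of A minus B between groups of a line ran from -0.26 to 0.48, which does not settle it. With the letter as a replicate block, all 18 counts stayed within 1.5 times and 2 of 196 changes lost their call. Depth limits loci near 0.2 RPM, and a value of 0 allows up to 3 reads.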
